A study of Mus musculus with 12 samples.

Results

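Complement genes were examined in the inferior vena cava (IVC) of mice 7 days after surgery: 34 genes for components, receptors and regulators, all matched by symbol to 1 Ensembl identifier each, of 55414 genes in the table. The samples came from 12 wild-type C57BL/6J mice of 10 weeks, 6 with an arteriovenous fistula (AVF) made by needle puncture between the aorta and the IVC and 6 sham-operated without the puncture, with 3 males and 3 females in each group. The study set AVF samples #05 (male) and #09 (female) apart as OUT and called the other 4 (males #04 and #06, females #07 and #11) nAVF. That split was read from the expression of these same libraries, so OUT against nAVF is given here without a test, and p values of nAVF against sham do not account for it. Every library was 1 mouse, and the sham samples were #16, #17 and #18 (male) and #19, #22 and #23 (female).

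Complement is a cascade of plasma proteins that tags surfaces, recruits leukocytes and can perforate membranes. The classical pathway starts when C1q recognizes antibody or other ligands and activates C1r and C1s, the lectin pathway starts with mannose-binding lectins and their proteases, and the alternative pathway amplifies C3 cleavage through factors B and D. All routes meet at C3 and continue through C5 to the terminal proteins C6 to C9, while inhibitors on cells and in plasma limit each step. Most circulating components are secreted by hepatocytes, but macrophages, fibroblasts and adipocytes in tissues also make some of them, C1q being a macrophage product and factor D a product of fat.

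The libraries held 15177854 to 22717370 counts. Expression is given as normalized CPM, counts scaled to a common library size after adjustment by the trimmed mean of M values, and 3 counts corresponded to 0.126 to 0.307 normalized CPM. Library #07 stood apart with 46.0% ribosomal RNA, against 2.39% to 12.6% in the others. Defining markers of the vessel wall were present in every library, with Cdh5 of endothelium at 213 to 326 and Myh11 of smooth muscle at 570 to 1780 normalized CPM. Adipoq of fat was also present in every library, at 251 to 579. Alb, which defines hepatocytes, was at 0.126 to 2.67 in sham and nAVF, at 1830 in #05 and at 5640 in #09. In bulk tissue, fewer cells of a type and less RNA per cell cannot be told apart.

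The members were parted by their level in sham. A median of at least 1 normalized CPM over the 6 sham libraries was taken as locally expressed, which 23 members met and 11 did not. The limit fell in a gap, between C5ar2 (sham median 3.53) just inside and C8g (0.472) just outside. The 11 low members were the terminal proteins C8a, C8b, C8g, C9 and Hc (the mouse gene of C5), the lectin pathway genes Masp2, Mbl1 and Mbl2, the inhibitors C4bp and Cfi, and the macrophage receptor Vsig4. The locally expressed group so defined held genes for recognition by C1q, for C3 and its alternative amplification and for C6 and C7. The genes of C5, C8 and C9 were in the low group. The sham level set these groups, so their make-up is a description and no finding.

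Levels of different genes were compared per kilobase of the canonical transcript. Cfd, the gene of factor D (adipsin), was the highest member in sham, with a median of 636 normalized CPM per kilobase (range 475 to 902), followed by C3 at 305 (208 to 360). C7 (177), C1s1 (133), Clu (80.3), C1ra (60.6) and Cd59a (59.2) came next. C7 ranged from 80.3 to 434 and overlapped C3, C1s1, Clu and C1ra (54.3 to 89.8). Clu, C1ra and Cd59a overlapped one another. The order among genes that overlapped is not beyond the spread of the mice. Among the C1q chains, C1qa stood at 35.6, C1qc at 19.6 and C1qb at 19.0, and the ranges of the latter pair overlapped. The anaphylatoxin receptors C5ar1 (4.96), C3ar1 (4.37) and C5ar2 (0.992) and the terminal protein C6 (1.70) were among the lowest of the locally expressed members.

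In the AVF, the genes of C1q, of C4, of factor B and of the receptors C3ar1 and C5ar1 were higher than in sham, while C3 itself, factor D and most proteases of the cascade were not called changed. A gene was called with a Benjamini-Hochberg adjusted p value under 0.05 by edgeR's quasi-likelihood test and a change of at least 2-fold. Genes past the adjusted p value are described as having risen or fallen also where the change was under 2-fold. In AVF against sham, 9 of 34 members were called higher and 0 lower, against 3.37% and 1.4% of the 15912 genes tested. Of these 9, C3ar1, C4b and C6 were locally expressed, and C8b, C9, Hc, Cfi and Masp2 passed the filter on low counts only through the OUT libraries, so that they had to differ and their calls are no support. Vsig4, the remaining call, was over 1 CPM in AVF libraries only, so its call in this comparison is no support either. Without #05 and #09 the calls were 3 (C3ar1, C4b and Vsig4), without #22 they were 4, and without #19 or #23 they were 5. DESeq2 called 12 higher, with C8a, C4bp, Mbl1 and Mbl2 added and C8b lost, and 0 lower. Those added also passed the filter only through the OUT libraries, so their calls are no support either. At an unadjusted p value under 0.05, 10 of the 23 locally expressed members were higher and 1 lower, against 16.4% and 15.2% of all genes. With the adjusted p value alone, 8 of the 23 locally expressed members were higher and 1 lower, against 8.63% and 5.13% of all genes tested. The median log2 fold change of the locally expressed members was 0.29, and that of all genes -0.01.

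In nAVF against sham, which uses the same sham libraries, 3 of the 30 members tested were called higher (C3ar1, C4b and Vsig4) and 0 lower, against 1.53% and 0.467% of the 22059 genes tested. DESeq2 called 5 higher and 0 lower. At an unadjusted p value under 0.05, 11 were higher and 2 lower (Cd59a and Masp1), against 10.6% and 11.4% of all genes. C8a, C4bp, Mbl1 and Mbl2 had no counts in these 10 libraries and were not tested. With the adjusted p value alone 8 members were higher and 1 lower, against 3.23% and 1.13% of all genes. The call rested on few mice: it fell to 0 members without #11, and to 1 without #04, #22 or #23 (C3ar1 each time), and rose to 5 without #07. The locally expressed members had a median log2 fold change of 0.16 and all genes -0.04.

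**Figure D1:**
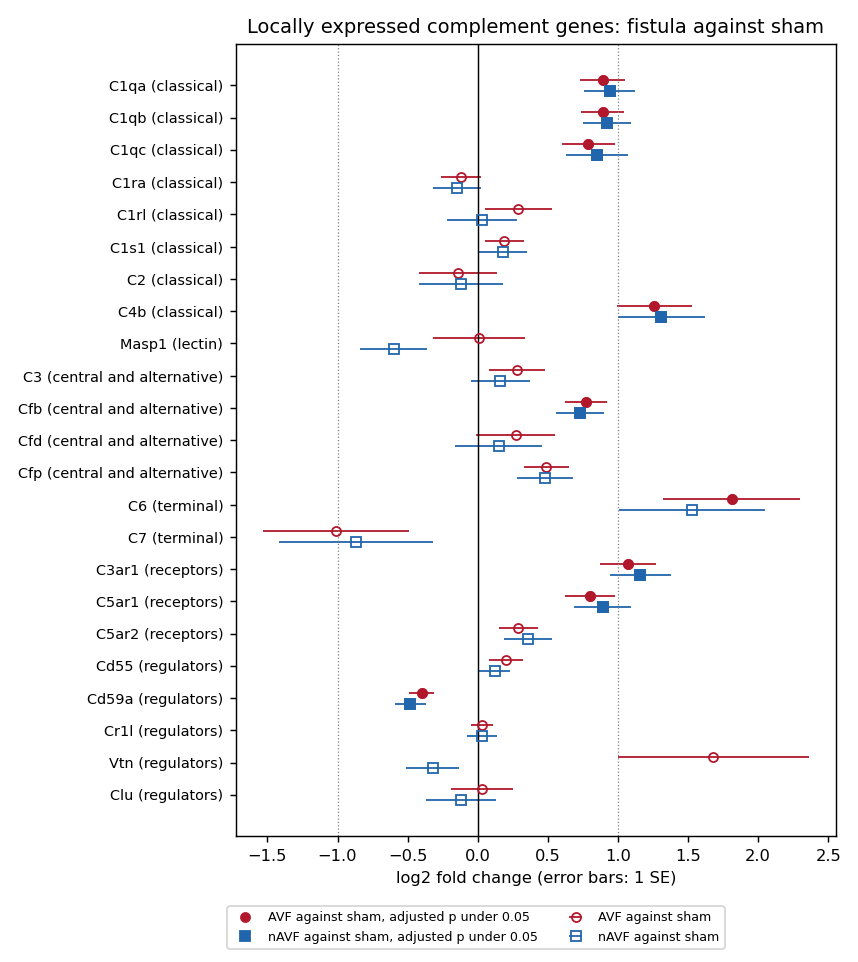
Log2 fold changes (x axis, error bars 1 SE) of the 23 locally expressed complement genes (y axis, with their role) in AVF against sham (circles) and nAVF against sham (squares), filled where the adjusted p value was under 0.05. Dotted lines mark 2-fold. C1qa, C1qb, C1qc, C4b, Cfb, C3ar1 and C5ar1 lie to the right in both comparisons, and Cd59a is the filled gene on the left.

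The 3 chains of C1q rose together. C1qa, at 33.5 to 45.5 normalized CPM in sham with a median of 38.7, was at 81.3, 60.3, 52.0 and 108 in nAVF samples #04, #06, #07 and #11, and at 70.2 and 61.6 in OUT samples #05 and #09. All 6 AVF libraries were above all 6 sham libraries, and #11 was the highest. The log2 fold change was 0.89 ± 0.16 (SE, n = 6 and 6, edgeR adjusted p = 0.00418), and 0.94 ± 0.18 in nAVF (n = 4, adjusted p = 0.0142). C1qb was at 42.6 to 59.0 in sham (median 48.1), at 91.2, 83.1, 67.0 and 135 in nAVF in the same order of samples, and at 93.6 and 78.9 in OUT. The groups again did not overlap, and the log2 fold change was 0.89 ± 0.15 (edgeR adjusted p = 0.00306). C1qc was at 29.9 to 51.9 in sham (median 36.4), at 72.2, 50.8, 47.5 and 102 in nAVF, and at 62.3 and 56.5 in OUT. Only #06 and #07 were within the sham range, below #18. C1qc rose by 0.79 ± 0.19 (edgeR adjusted p = 0.0202). The ratio of C1qa to C1qb was 0.725 to 0.891 over the 12 libraries, and that of C1qc to C1qb was 0.692 to 0.880 in sham and 0.612 to 0.791 in AVF.

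Of the 34 members, C1qa, C1qb, C3ar1 and C5ar1 had every AVF library above every sham library, and Cd59a every AVF library below. Over all genes tested in AVF against sham, 4.06% were separated upward in this way and 1.71% downward. In nAVF alone C5ar2 was separated from sham as well, which made 5 members above and 1 below, against 4.28% and 2.56% of all genes tested there.

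The C1q genes are neighbours on mouse chromosome 4 (GRCm39) and lie on the minus strand, with 2954 bases between C1qb and C1qc and 2846 between C1qc and C1qa. Since they rose together, the 150 bases before their canonical start sites are shown, read on the strand of the gene from the GRCm39 genome (C1qa chr4:136626162-136626311, C1qb chr4:136613512-136613661, C1qc chr4:136620377-136620526). Capitals mark GAGGAA or its reverse complement TTCCTC, the core of sites of PU.1, a myeloid transcription factor, and in C1qa TTCNNNGAA, a core of sites of STAT factors.
C1qa: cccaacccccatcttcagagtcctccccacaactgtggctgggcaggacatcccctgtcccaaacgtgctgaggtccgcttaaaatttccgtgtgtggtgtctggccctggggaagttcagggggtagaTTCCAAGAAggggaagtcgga
C1qb: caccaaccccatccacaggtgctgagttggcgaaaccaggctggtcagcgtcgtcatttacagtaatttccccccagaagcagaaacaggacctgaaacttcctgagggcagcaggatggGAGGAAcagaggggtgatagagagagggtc
C1qc: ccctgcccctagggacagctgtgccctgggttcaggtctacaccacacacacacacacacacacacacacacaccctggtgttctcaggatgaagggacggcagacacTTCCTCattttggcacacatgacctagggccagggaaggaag
Within 250 bases before the start, on either strand, GAGGAA was found in 5 of the 34 members (C1qb, C1qc, C6, Cd59a and Vsig4) and in 23.0% of the 21627 promoters of protein-coding genes. TTCNNNGAA was in 4 members (C1qa, C7, C8a and Masp2) and in 7.73% of all promoters. These matches describe the letters of the windows and not bound sites.

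Macrophage markers moved with C1q. All 10 listed macrophage markers had over 3 counts in each group, and their summed level was 657 to 1050 normalized CPM in sham and 1160 to 1890 in AVF, without overlap. Csf1r, the receptor that macrophages need to survive, was at 58.0 to 107 in sham and 97.9 to 184 in AVF. C1qa as a share of that sum was 0.0363 to 0.0519 in sham and 0.0405 to 0.0572 in AVF, and the ratio differed by 1.08-fold (two-sided exact permutation test, p = 0.318, adjusted over 2 such ratios 0.318). The same ratio in nAVF differed by 1.06-fold (exact permutation p = 0.514). With the most abundant marker, Lyz2, left out of the sum, the AVF ratio differed by 1.13-fold (exact permutation p = 0.0541). The smallest p values that these tests allow were 0.00216 and 0.00952.

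Among the other classical genes, C4b rose and the C1 proteases and C2 did not pass the test. C4b, whose protein joins the C3 convertase once C1s has cut it, was at 74.9 to 205 in sham (median 133), at 496, 358, 194 and 250 in nAVF samples #04, #06, #07 and #11, and at 284 and 303 in OUT. Only #07 fell inside the sham range. The log2 fold change was 1.26 ± 0.27 in AVF (edgeR adjusted p = 0.0123) and 1.31 ± 0.31 in nAVF (adjusted p = 0.0340). The nAVF call was lost in the robust fit and without #04, #06, #11, #16, #22 or #23. C2, the partner of C4b in that convertase, was at 40.9 to 106 in sham and 38.5 to 87.5 in AVF (log2 fold change -0.14 ± 0.28, edgeR adjusted p = 0.766). C1ra and C1s1, the proteases of the C1 complex, gave -0.12 ± 0.14 and 0.19 ± 0.14, with adjusted p values of 0.615 and 0.388, and the related C1rl gave 0.29 ± 0.24 (edgeR, 0.443). C4a, C1rb and C1s2 are near-identical copies between which RSEM divides reads. They took at most 1.04%, 0.447% and 0.359% of the summed level of the pair in any library.

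**Figure D2:**
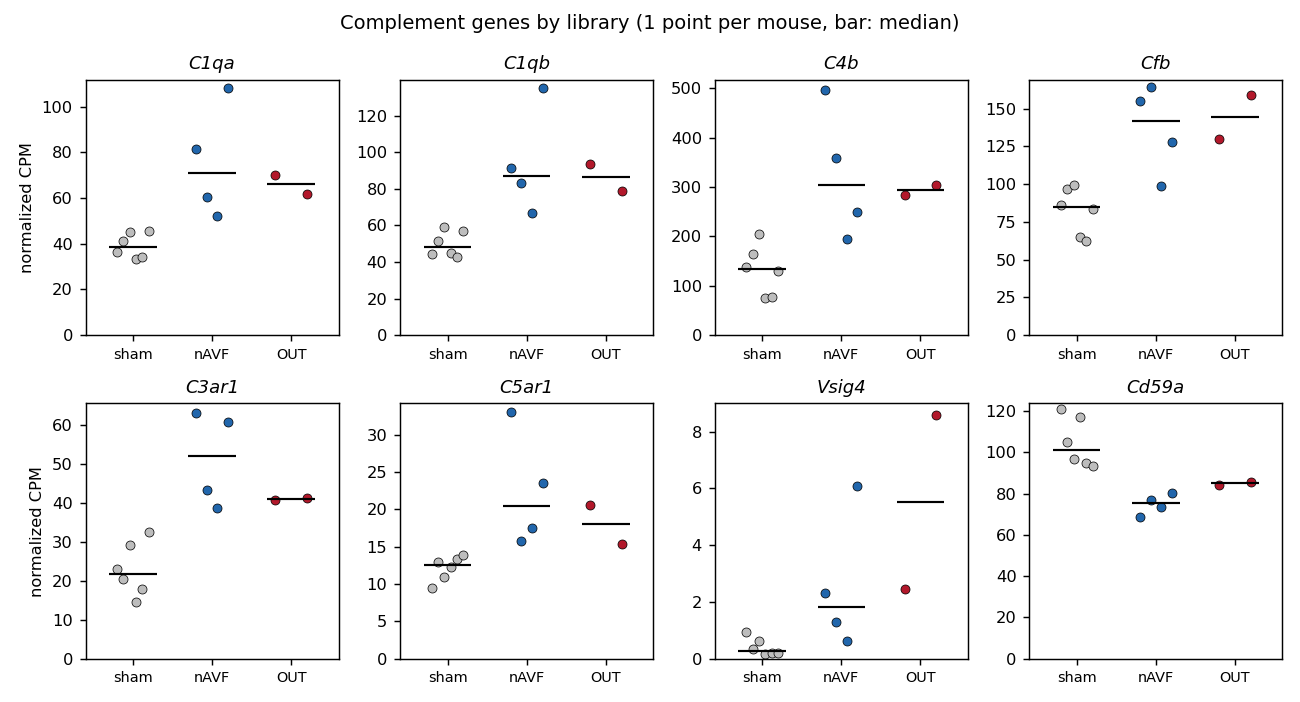
Normalized CPM (y axis, from 0) of 8 complement genes in the 6 sham, 4 nAVF and 2 OUT libraries (x axis), 1 point per mouse with a bar at the median. C1qa, C1qb, C3ar1 and C5ar1 show no overlap of sham with either AVF subgroup, Cd59a is lower in all 6 AVF libraries, and Vsig4 spreads from 0.615 to 8.57 in AVF.

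In the alternative pathway Cfb rose, while C3, Cfd and Cfp did not pass the test. Cfb, the gene of factor B, the protease of the alternative C3 convertase, was at 62.3 to 99.7 in sham (median 84.7), at 155, 164, 98.7 and 128 in nAVF samples #04, #06, #07 and #11, and at 130 and 159 in OUT. It overlapped sham only in #07, by 98.7 against 99.7 in #18. Cfb rose by 0.77 ± 0.15 on the log2 scale in AVF (edgeR adjusted p = 0.00602) and by 0.73 ± 0.17 in nAVF (adjusted p = 0.0321), less than 2-fold in both. Cfb and C2 are tandem genes on the minus strand of chromosome 17, with 18 bases between them, yet their ratio, Cfb over C2, was 0.941 to 1.70 in sham and 1.77 to 3.75 in AVF. This ratio was chosen after its values were seen and was not tested.

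C3, the protein on which all pathways act, was at 1070 to 1860 in sham (median 1570), at 2530, 1270, 1340 and 1590 in nAVF samples #04, #06, #07 and #11, and at 1520 and 2670 in OUT. Only #04 and #09 were above the sham range. The log2 fold change was 0.28 ± 0.20 (edgeR adjusted p = 0.375). Cfd was at 446 to 848 in sham and at 405 to 1300 in AVF, with #04 (1300) and #09 (1060) highest (log2 fold change 0.27 ± 0.28, edgeR adjusted p = 0.545). Relative to the 7 summed adipocyte markers, which were at 2820 to 7330 in sham and 3140 to 7000 in AVF, Cfd differed by 1.24-fold (two-sided exact permutation test, p = 0.292, n = 6 and 6). Cfp, the gene of properdin, which stabilizes the alternative convertase, was at 19.2 to 30.8 in sham and 23.7 to 47.8 in AVF (log2 fold change 0.49 ± 0.16, edgeR adjusted p = 0.0637).

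Of the terminal genes, C6 and C7 were locally expressed and had fold changes of opposite sign. C6, which binds C5b to start the membrane attack complex, was at 2.67 to 9.25 in sham (median 5.11), at 38.5, 7.46, 5.84 and 10.8 in nAVF samples #04, #06, #07 and #11, and at 29.6 and 22.3 in OUT. #06 and #07 were within the sham range. It rose by 1.81 ± 0.49 (edgeR adjusted p = 0.0293) in AVF, and was not called in nAVF (1.53 ± 0.52, adjusted p = 0.112) by the quasi-likelihood test without sex as a covariate. It was called with sex in the model (1.5, edgeR adjusted p = 0.0412), by edgeR's exact test and by DESeq2. Without #04 the nAVF change was 0.57. The AVF call was lost without #04, #05, #19, #22 or #23 and without both OUT libraries. C7, which anchors the growing complex in the membrane, was at 217 to 1180 in sham and 107 to 606 in AVF, with a log2 fold change of -1.01 ± 0.52 (edgeR adjusted p = 0.206). C7 differed between the sexes, and with sex in the model the change was -0.90 (edgeR adjusted p = 0.0226), under 2-fold. C6 over C7 was 0.00659 to 0.0160 in sham and 0.0222 to 0.209 in AVF, a ratio also chosen after its values were seen and not tested.

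Among the receptors C3ar1 and C5ar1 rose, and Vsig4 is described apart from them. C3ar1, the receptor of C3a on macrophages and other myeloid cells, was at 14.7 to 32.6 in sham (median 21.9), at 63.2, 43.5, 38.8 and 60.8 in nAVF samples #04, #06, #07 and #11, and at 40.7 and 41.2 in OUT. All AVF libraries were above all sham libraries. Its log2 fold change was 1.07 ± 0.20 in AVF (edgeR adjusted p = 0.00494) and 1.16 ± 0.22 in nAVF (adjusted p = 0.0115). Because 1.07 is close to the 2-fold limit, the call was lost without #04, #11 or #19, although the fold change stayed between 0.97 and 1.20 under every alternative run. C5ar1, the signalling receptor of C5a, was at 9.44 to 13.9 in sham (median 12.6) and at 15.4 to 33.0 in AVF, again without overlap, and rose by 0.80 ± 0.18 (edgeR adjusted p = 0.0144). C5ar2, the second C5a receptor, which does not couple to G proteins, was at 3.15 to 3.72 in sham and 3.32 to 5.12 in AVF (log2 fold change 0.29 ± 0.14, edgeR adjusted p = 0.186). C5ar1 and C5ar2 lie 2546 bases apart on chromosome 7.

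Vsig4, also known as CRIg, is a receptor of C3b on resident macrophages such as Kupffer cells and an inhibitor of the alternative convertase. It was scarce in sham, at 0.158 to 0.954 (median 0.273), and was at 2.32, 1.31, 0.615 and 6.08 in nAVF samples #04, #06, #07 and #11 and at 2.46 and 8.57 in OUT. Of the AVF libraries only #07 was within the sham range. Its log2 fold change was 3.09 ± 0.65 in AVF (edgeR adjusted p = 0.0104) and 2.64 ± 0.63 in nAVF (adjusted p = 0.0360), and a sham library held at most 20 counts. The call in AVF against sham is no support, since Vsig4 was over 1 CPM in AVF libraries only. The nAVF call was lost in 7 of 10 fits that left out 1 sample. It was also lost with the replicate block (log2 fold change 2.16, edgeR adjusted p = 0.145). Unlike the other 10 members low in sham, it did not separate OUT from nAVF.

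Of the locally expressed inhibitors Cd59a fell and the others did not pass the test. Cd59a, which blocks the insertion of C9, was at 93.4 to 121 in sham (median 101), at 68.5, 77.0, 73.4 and 80.3 in nAVF samples #04, #06, #07 and #11, and at 84.3 and 85.8 in OUT. All 6 AVF libraries were below all 6 sham libraries. It fell by 0.40 ± 0.09 on the log2 scale in AVF (edgeR adjusted p = 0.0115), 1.32-fold, and by 0.48 ± 0.11 in nAVF (adjusted p = 0.0244). Brown fat markers also differed, with 4 genes summing to 72.4 to 1360 in sham and 9.34 to 172 in AVF, and their part in the fall of Cd59a was not tested. Cd55, the decay-accelerating factor, and Cr1l, the rodent inhibitor Crry, gave log2 fold changes of 0.20 ± 0.12 (edgeR adjusted p = 0.299) and 0.03 ± 0.08 (0.819). Clu, which keeps terminal complexes out of membranes, gave 0.03 ± 0.22 (edgeR adjusted p = 0.940). Vtn, the gene of vitronectin, with a similar role, was at 7.53 to 14.1 in sham and 6.37 to 10.5 in nAVF but at 47.9 in #05 and 127 in #09, and was not called in either comparison (edgeR adjusted p = 0.114 and 0.345). Masp1, a protease of the lectin pathway, was at 10.8 to 24.2 in sham, 7.51 to 12.9 in nAVF, 19.3 in #05 and 34.3 in #09.

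OUT and nAVF were set side by side, member by member, as a description. Both OUT libraries were above all 4 nAVF libraries in 14 of 34 members, against 7.7% of the 15912 genes, and below them in 0, against 4.95%. The 14 were 10 of the 11 members low in sham, all but Vsig4, and the locally expressed C1rl, Masp1, Cd59a and Vtn. With a median at least 4 times that of nAVF they were 11 (the 10 and Vtn), against 2.38% of all genes. Of these members, 9 (C8a, C8b, C9, C4bp, Hc, Cfi, Masp2, Mbl1 and Mbl2) passed the filter on low counts only through the OUT libraries. The study also drew OUT from these libraries, and such genes may have been among those that drew it. Nothing is read from these counts.

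Hc was at 0.0421 to 0.518 in sham, at 0.0580, 0.769, 0.307 and 0.283 in nAVF samples #04, #06, #07 and #11, at 37.6 in #05 and at 102 in #09. The 10 sham and nAVF libraries held at most 17 counts each, far below both OUT libraries. Cfi, the gene of factor I, which cleaves C3b and C4b, was at 0.0527 to 0.440 in sham, at 0.290, 1.40, 0.410 and 0.849 in nAVF, and at 21.4 and 79.9 in OUT. C9, which forms the pore, had at most 2 counts in a sham or nAVF library, and was at 25.4 and 44.4 in OUT. C8a, C4bp, Mbl1 and Mbl2 had no count in any sham or nAVF library. C8a, a chain of the C8 protein, was at 33.4 in #05 and 49.4 in #09, at least 109-fold higher than nAVF by the floor of 3 counts in a library. C4bp, the plasma inhibitor that binds C4b, was at 20.4 and 66.9 (at least 66.4-fold), and the mannose-binding lectin Mbl2 at 12.9 and 48.9 (at least 41.8-fold). C8b was at 15.5 and 21.0 and at most 6 counts elsewhere, C8g at 3.18 and 10.8, Masp2 at 5.01 and 15.0, and Mbl1 at 4.29 and 14.8. The locally expressed genes C1qa, C4b, Cfb and C3ar1 of the same 2 libraries lay within the nAVF range. Others did not. C1rl, Masp1, Cd59a and Vtn were above it in both, and C3 was above it in #09 (2670 against at most 2530). Cd55 was at 83.9 in #05 and 141 in #09, against 90.8 to 106 in nAVF. Below the nAVF range in #09 were C5ar1 (15.4 against at least 15.8) and C7 (107 against at least 114). C5ar2 was below it in #05 (3.32 against at least 3.75).

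**Figure D3:**
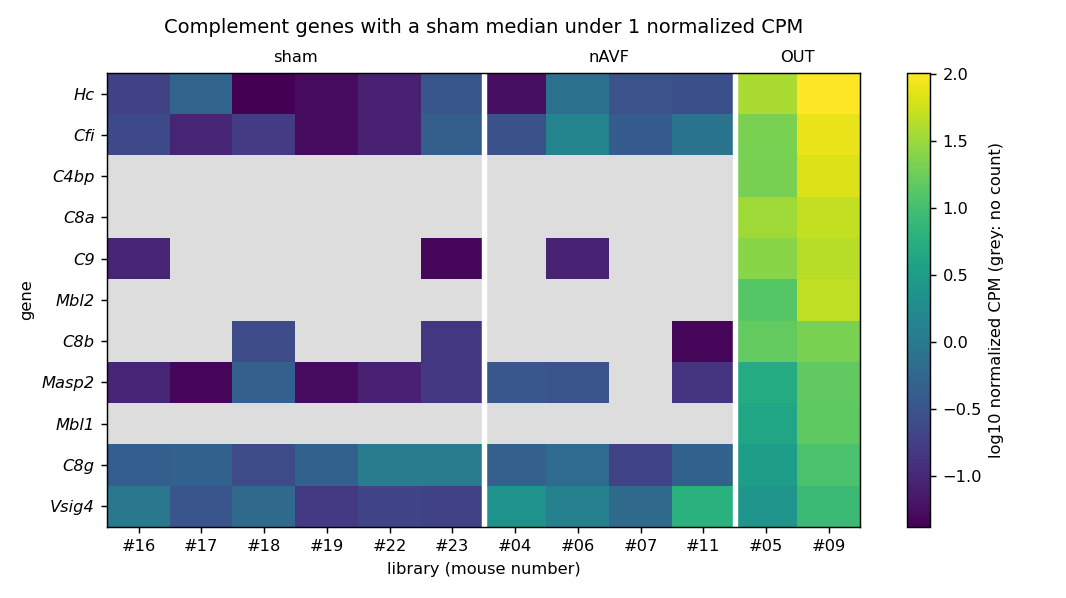
Log10 normalized CPM (color, grey where a library had no count) of the 11 complement genes with a sham median under 1 normalized CPM (rows) in 6 sham, 4 nAVF and 2 OUT libraries (columns, by mouse number). The 10 genes above Vsig4 are bright in #05 and #09, at 3.18 to 102 normalized CPM, and at most 1.40 in the other 10 libraries.

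Hepatocyte markers moved with these genes. Of 17 listed markers, 11 had over 3 counts in sham, 13 in nAVF and all in OUT. Of them 16 were at 13.3 to 1830 normalized CPM in #05 and 62.7 to 5640 in #09 and at most 14.8 in any other library, while Cyp2e1 was at 501 to 2740 in all 12. The summed level without Cyp2e1, a sum chosen after its values were seen, was 2.44 to 8.68 in sham, 6.74 to 18.1 in nAVF, 3570 in #05 and 11000 in #09. The ratio of #09 to #05 was 1.36 to 3.81 over the 10 complement genes (median 3.13) and 1.05 to 5.22 over the 17 markers (median 3.08). Mbl2 (3.81), Cfi (3.73) and Mbl1 (3.44) were at the upper end, and C8b (1.36), C8a (1.48) and C9 (1.75) at the lower end. What part hepatocyte RNA had in these levels was not tested.

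**Figure D4:**
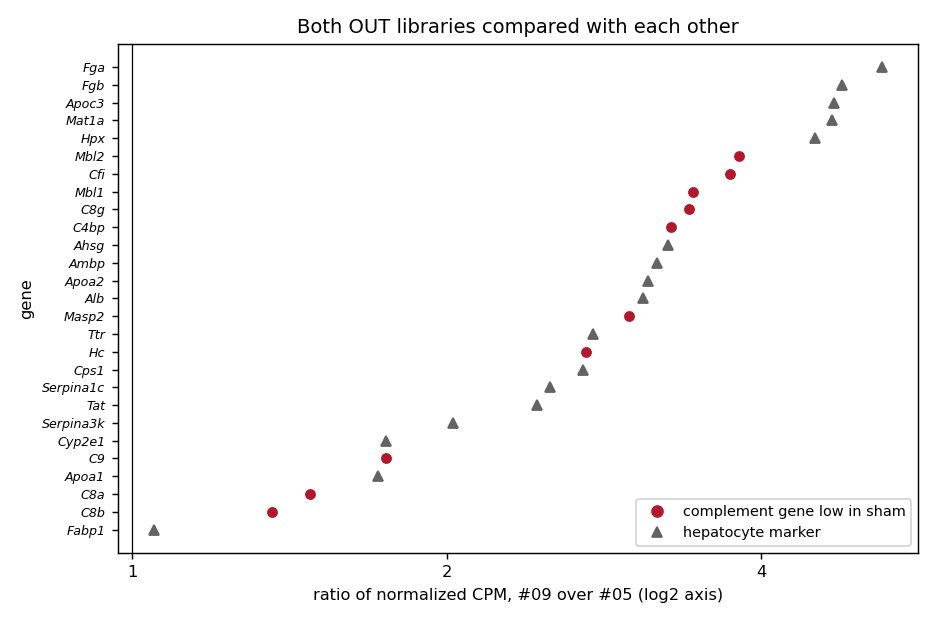
Ratio of normalized CPM in #09 over #05 (x axis, log2 scale) for the 10 complement genes low in sham other than Vsig4 (circles) and 17 hepatocyte markers (triangles), sorted (y axis, gene). The circles run from 1.36 (C8b) to 3.81 (Mbl2) and lie within the range of the triangles, 1.05 to 5.22.

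Of these genes, whose transcripts appeared together in OUT, the promoters of the 3 with the letters marked below in the last 150 bases are shown (GRCm39, minus strand, C8a chr4:104733615-104733764, C4bp chr1:130589401-130589550, Hc chr2:34951451-34951600). Capitals mark GTTAAT or its reverse complement ATTAAC, a core of sites of HNF1, a transcription factor of hepatocytes.
C8a: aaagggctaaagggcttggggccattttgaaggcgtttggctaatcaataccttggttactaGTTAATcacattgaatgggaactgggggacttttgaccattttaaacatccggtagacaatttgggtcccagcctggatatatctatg
C4bp: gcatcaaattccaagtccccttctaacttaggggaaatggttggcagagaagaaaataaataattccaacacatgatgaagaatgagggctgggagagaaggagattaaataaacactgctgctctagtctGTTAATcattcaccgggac
Hc: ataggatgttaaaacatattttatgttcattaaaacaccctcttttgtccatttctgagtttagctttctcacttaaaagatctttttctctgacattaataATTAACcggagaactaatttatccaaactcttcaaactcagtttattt
On either strand of the 250 bases before the start, GTTAAT was in 8 of 34 members, namely C8a, C8b, C4bp and Hc of the low group and C6, C7, Cfp and Vtn of the locally expressed, and in 6.3% of all promoters. CAAAGTCCA, a core of HNF4 sites, was in 0 members and 0.375% of promoters, and TTGCNNAA of C/EBP factors in 6 members (C1ra, C1rl, C1s1, C3, C6 and C9) and 9.37%. A core of IRF sites was in Cd59a and 3.32%, and one of NF-kB sites in 0 members and 0.102%.

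Between the sexes, C7 was lower in females. In sham males #16, #17 and #18 it was at 683, 925 and 1180 normalized CPM, and in sham females #19, #22 and #23 at 246, 277 and 217. The groups did not overlap, and the log2 fold change of females against males was -1.93 ± 0.21 (n = 3 and 3, edgeR adjusted p = 0.0323), 3.81-fold lower. C7 was the only member of 30 called between sham females and males, where 1.5-fold was asked, and 0 were called higher, against 0.05% lower and 0.0318% higher of the 21992 genes tested. The call was lost when any of #17, #18, #19, #22 or #23 was left out, with the fold change kept at -2.10 to -1.73 under all alternatives run.

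The same order was seen after the fistula. C7 was at 606, 367 and 337 in AVF males #04, #05 and #06 and at 114, 107 and 224 in AVF females #07, #09 and #11, again without overlap, with a log2 fold change of -1.55 ± 0.34 that failed the correction (edgeR adjusted p = 0.997, unadjusted 0.00238). In AVF females against males 0 of 34 members were called in either direction, against 0.0271% lower and 0.00452% higher of 22123 genes tested, and 3 had an unadjusted p value under 0.05, all lower (C2, C4b and C7), against 1.75% lower and 1.55% higher of all genes. DESeq2 called 2, C2 and C7. The AVF to sham ratio of mean C7 was 0.470 in males and 0.601 in females.

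At an unadjusted p value under 0.05, 9 members were lower in sham females and 1 higher, against 4.85% and 4.38% of all genes tested. Those lower besides C7 were C6 (-1.34 ± 0.25, edgeR adjusted p = 0.245), C4b, C2, C1ra, C1s1, Cfb, Clu and Vsig4, and Masp1 was higher. Of these C7 alone passed the correction by edgeR, and DESeq2 called C6 as well. C6 was at 9.25, 6.26 and 7.75 in sham males and 3.95, 2.67 and 2.74 in sham females. C2 was at 50.6, 101 and 106 in sham males and 40.9, 46.4 and 57.0 in sham females, and at 68.9 to 87.5 in AVF males against 38.5 to 51.8 in AVF females. Fibroblast and fat markers also differed between these mice, with summed fibroblast markers at 2880 to 4610 in sham males and 2670 to 3070 in sham females, and adipocyte markers at 2820 to 5780 and 4080 to 7330, and their part in the differences of C7 and C6 was not tested.

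The effect of the fistula on a member was not shown to differ between the sexes. The interaction of operation and sex called 0 of 34 members in either direction, against 0.0% of the 22163 genes tested, and 1 member, Vsig4, had an unadjusted p value under 0.05 (interaction 3.05 ± 1.05 on the log2 scale, edgeR adjusted p = 0.960), higher in females, against 2.09% higher and 2.73% lower of all genes. Vsig4 was at 0.330 to 0.954 in sham males and 0.158 to 0.215 in sham females, and at 1.31 to 2.46 in AVF males and 0.615 to 8.57 in AVF females. DESeq2 also called 0. Mean C1qa in AVF was 1.73 times that of sham in males and 1.96 times in females, and C4b 2.25 and 2.66 times.

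**Figure D5:**
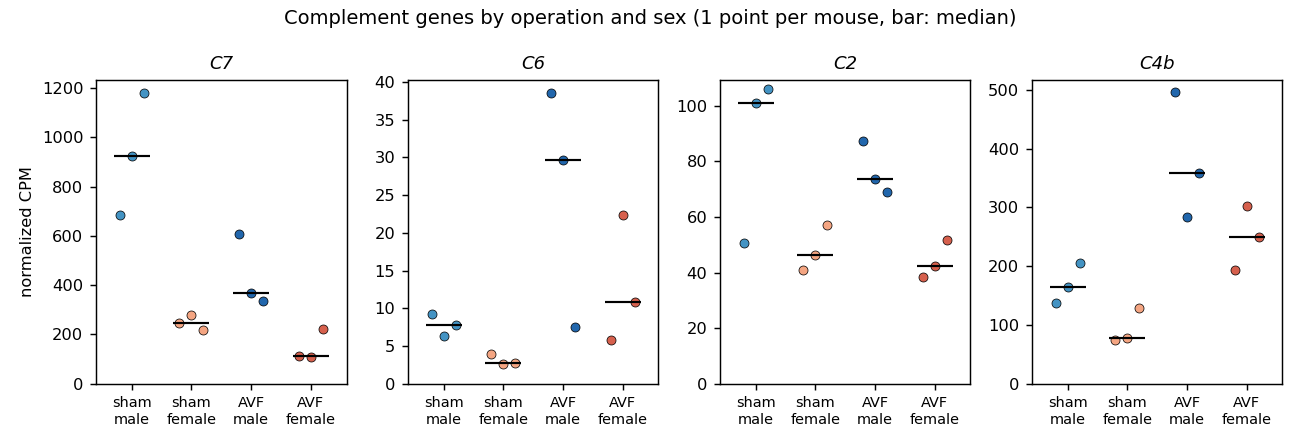
Normalized CPM (y axis, from 0) of C7, C6, C2 and C4b in males and females after sham or AVF surgery (x axis), 3 mice a group, 1 point per mouse with a bar at the median. C7 of sham males (683 to 1180) lies above that of sham females (217 to 277), and AVF males (337 to 606) above AVF females (107 to 224).

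Of 29 other complement genes, 24 were tested in AVF against sham and 7 were called higher and 0 lower, beside the 3.37% and 1.4% of all genes. Colec10, a collectin of the lectin pathway, was at 0 to 0.0843 in sham, at 1.04, 0.769, 0.205 and 0.330 in nAVF samples #04, #06, #07 and #11, at 1.49 in #05 and at 10.6 in #09. All AVF libraries were above all sham libraries, but #07 was under its floor of 3 counts (0.307 normalized CPM), so nothing is read from that separation. Colec10 was also the only one of 25 called in nAVF, on at most 18 counts a library (edgeR adjusted p = 0.0164), beside 1.53% of all genes. With at most 2 counts in a sham library, it passed the count filter only through AVF libraries, so this call is no support either. Fcna, ficolin A, another lectin made by macrophages, was at 7.67 to 11.0 in sham, at 29.8, 8.55, 10.8 and 53.9 in nAVF and at 11.0 and 20.9 in OUT (log2 fold change 1.28 ± 0.39 in AVF, edgeR adjusted p = 0.0475). Itgax, the alpha chain of complement receptor 4, was at 2.24 to 9.82 in sham and 7.41 to 11.2 in AVF (log2 fold change 1.05 ± 0.30, edgeR adjusted p = 0.0359). With 1 sample left out the call of Fcna was lost in 9 of 12 fits and that of Itgax in 8. Among the other calls were Cfhr2, Cfhr4 and Cpn1, genes of plasma proteins, which were at most 0.895 in any sham or nAVF library and at 3.81 to 22.7 in #05 and 10.5 to 88.3 in #09. With the adjusted p value alone 2 more were higher, Itgam (the alpha chain of complement receptor 3) and Cd93, and Csmd1 was lower, beside 8.63% and 5.13% of all genes. Colec10, Cfhr2, Cfhr4 and Cpn1 were over 1 CPM in AVF libraries only, so that their calls in AVF against sham are no support.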

How the data were processed

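Stranded poly(A) libraries of the 12 IVC were sequenced by the authors in paired ends. Trimming was by PRINSEQ and Trimmomatic 0.39, and alignment by STAR 2.7.7a against GRCm39. The expected counts that the authors deposited came from RSEM 1.3.3, 1 value per gene and mouse, neither normalized nor pooled. Of the values of a library, 5.72% to 7.75% were not whole. RSEM shares reads between similar genes, so members with near copies carry that uncertainty. Counts were rounded and normalized by TMM in edgeR 4.0.16 (R 4.3.3). AVF against sham was fitted on genes above 1 CPM in 2 or more samples, and the other comparisons on genes whose counts over the 12 samples exceeded 12. All p values came from edgeR's quasi-likelihood test over the whole table, adjusted by the Benjamini-Hochberg procedure, or from exact permutation tests (SciPy 1.17.1). A call asked for an adjusted p value under 0.05 and 2-fold, or 1.5-fold between sexes. On simulated counts with 200 changed genes the test recovered 200 in AVF against sham, on 15618 genes. In female against male sham it recovered 187 of 200, on 22133 genes. The median absolute log2 fold change was 1.99 in the former and 2.05 in the latter. Recovery of genes that differ by less than 2-fold was not tested. Gene positions, names and start sites were those of GENCODE M39 on GRCm39.

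Replicates were separate mice, and no batch is given in the sources used here. The members and lists were chosen with earlier results of these data known. Named with values were members called in a comparison and C1q, C3, C4b, factors B and D, the anaphylatoxin receptors, Hc and C9, and others by range or count. C2, C7 between AVF sexes, Vtn, Masp1, the other low members and some sex differences, and Itgam, Cd93 and Csmd1, were described after their values were seen. Some genes of the lists are not reported here. Alternatives were the exact test of edgeR, DESeq2 1.42.0, relative log expression size factors, other filters, unrounded counts, a robust fit, sex or the replicate number in the model, removal of ribosomal RNA genes, of #05 and #09 and of each sample, and other marker sums. Leaving out samples in the ratios and the hepatocyte sum without Cyp2e1 were chosen after seeing the data.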

Additional observations from a re-analysis of the deposited data

Results flagged for a closer look

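In 63 groups of 6 libraries (each member in AVF and in sham where a library had over 3 counts), 11 held a library far from the others by Dixon's criterion at 95%, which chance gives in about 1 in 20 groups. The groups shared libraries and genes that moved together, so the 11 cannot be set against that rate. In AVF, #09 was the highest and far from the rest for C8g (10.8 normalized CPM), C4bp (66.9), Hc (102), Cfi (79.9), Masp2 (15.0), Mbl1 (14.8), Mbl2 (48.9) and Vtn (127), all genes in which #05 was second. In sham, #23 was high for Cfp (30.8), #18 was high for Masp2 (0.463) and #22 was low for Cd55 (71.5). Sample #23 also held skeletal muscle markers at a sum of 966 normalized CPM, against 0.381 to 3.11 in the other sham libraries, and their part in its Cfp was not tested.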

How the results depend on the processing

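Members called higher in AVF against sham were 9, and 14 with edgeR's exact test and 12 with DESeq2. They were 14 with no fold change threshold (then 1 lower) and 3 without #05 and #09 (C3ar1, C4b and Vsig4). With 1 sample left out they were 4 to 9. The lowest, 4, came without #22, and without #19 or #23 they were 5. In nAVF against sham the 3 became 5 with the exact test and 5 with DESeq2 (C6 and Cfi added by both), 8 with no fold change threshold (then 1 lower), and 0 to 5 with 1 sample left out, a range that covers 1 without #04. Calls lower in sham females were 1, 2 with DESeq2 (C6 added) and 0 to 1 with 1 left out, and in AVF females 0, and 2 with DESeq2. Counts under the other size factors, filters, unrounded counts, robust fit, sex as a covariate and without ribosomal RNA genes were within 1.5 times. C4b kept its call in AVF against sham under all 25 alternatives. So did Vsig4, but it was over 1 CPM in AVF libraries only, so that its kept call is no support.

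Replicate numbers were not treated as pairs. Correlations of same-numbered deviations were -0.219 to 0.281 over 6 pairs (mean 0.11), 3 of them over 0.1. Over the 30 other pairs the mean was -0.0209, and 7 were over 0.1. Of 6 AVF samples, 2 correlated best with their own number, and 6 pairs are too few to exclude pairing. With the replicate block, 9 members were called in AVF against sham (C8b, Cfi, Hc and Masp2 gave way to C4bp, C8a, Mbl1 and Mbl2). In nAVF 2 were called (C3ar1 and C4b), and 0 in the interaction. C5ar1 and Cd59a then no longer passed in nAVF (edgeR adjusted p = 0.0834 and 0.103) but did in AVF (0.0397 and 0.0392).

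Log2 fold changes that changed sign without #05 and #09 included those of C8b (-1.87), Cfhr2 (-0.52), Cfhr4 (-0.15) and Cpn1 (-1.17) in AVF against sham. In nAVF against sham C9, on at most 2 counts a library, was at -0.03 with sex and -0.56 with the replicate block. With 1 sample left out, in nAVF C3 spanned -0.11 to 0.27, Cfd -0.35 to 0.35, C9 -2.24 to 1.07 and Cfhr4 -0.47 to 0.20. C3 and Cfd were negative only without #04. For members with few counts, depth limits what could be detected.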
